A study of Oryza sativa with 12 samples.

Results

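The 6 genes described here encode enzymes of chlorophyll synthesis and were followed in rice (Oryza sativa) leaves and roots. They were taken by locus from the deposited table of 37960 genes, and all 6 were present in it. PORA (Os04g0678700, chromosome 4) and PORB (Os10g0496900, chromosome 10) encode protochlorophyllide oxidoreductases. CHLI (Os03g0563300), CHLD (Os03g0811100) and CHLH (Os03g0323200), all on chromosome 3, encode the subunits of magnesium chelatase. CAO1 (Os10g0567400, chromosome 10) encodes chlorophyllide a oxygenase. Chromosomes are those carried in the locus identifiers, and the genome build is not given in the sources used here.

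Chlorophyll and heme share a pathway up to protoporphyrin IX. Magnesium chelatase inserts magnesium into that ring and so opens the chlorophyll branch, with CHLH as the subunit that holds the porphyrin and CHLI and CHLD as its ATPase-type partners. The oxidoreductases later use light to reduce protochlorophyllide. CAO1 turns part of the chlorophyllide a made into its b form, which leads to chlorophyll b. Green leaves use this branch, while most roots stay unpigmented.

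RNA-seq was done on 1-month-old seedlings grown in nutrient solution. The wild type (WT) was cultivar ZH11, as named in the sample titles, and the other genotype was an f3h line. The symbol F3H usually stands for flavanone 3-hydroxylase of flavonoid synthesis. The labels describe a knockdown, the design text speaks of CRISPR mutants, and neither gives the targeted locus or the number of independent lines, so the target could not serve as a check of the labels. Leaf and root of each genotype form 4 groups of 3 libraries, 12 in all, and nothing states that these came from separate plants. The p-values therefore reflect library spread alone, and that spread may be technical. Libraries held 31171931 to 37821918 counts in leaf and 23740780 to 29687320 in root. Levels are CPM, the gene's counts scaled to a library total of 1e+06, given as mean ± SD with n = 3, or by library in the order of replicates 1, 2 and 3. Tests are edgeR quasi-likelihood tests over all genes with Benjamini-Hochberg adjustment, and a gene is said to have risen or fallen where its adjusted p was below 0.05.

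Replicate 1 of WT leaf stood apart from the others. Log2 CPM of WT leaf replicate 1 correlated across genes, which are not independent, at r = 0.982 and 0.981 with WT leaf replicates 2 and 3, against 0.989 to 0.995 for the other pairs within groups. In that library CHLI was lower than the mean of replicates 2 and 3 by a log2 difference of -0.37, CAO1 by -0.28, PORB by -0.17, PORA by -0.16 and CHLD by -0.05, and CHLH was 0.20 higher. The labelled organs were checked with marker genes. The summed level of 4 root markers (LSI1, LSI2, CASP1 and NRAMP5) was 3470 to 3781 CPM in root libraries and 9.64 to 15.1 CPM in leaf libraries, with LSI2 and CASP1 at 0 in every WT leaf library. The summed level of 4 leaf markers (CAB2R, CAB1R, RCA and RBCS) was 27620 to 39833 CPM in leaf libraries and at most 65.8 CPM in root libraries.

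In leaf, both oxidoreductase genes fell in the f3h line and CHLD rose, while CHLH, CHLI and CAO1 did not pass the test. Of the 6 genes, 1 was called higher and 2 lower, where 17.9% of the 22438 genes tested in leaf were called higher and 18.6% lower (36.5% in either direction). For 3 of the 6 genes the f3h and WT libraries formed separate ranges, as they did for 52.3% of all genes tested. The median log2 fold change of the 6 genes was 0.03, and that of all tested genes was -0.02. The share called, 3 of 6, is not far from that background, so the leaf values are read gene by gene.

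PORA measured 76.0, 85.9 and 83.7 CPM in WT leaf and 29.0, 30.9 and 27.1 CPM in f3h leaf. All 3 f3h libraries lay far below all 3 WT libraries. The mean was 81.9 ± 5.17 CPM in WT and 29.0 ± 1.88 CPM in f3h, a log2 fold change of -1.47 ± 0.10 (SE, adjusted p = 7.25e-06). PORB, the second oxidoreductase gene, measured 815, 923 and 915 CPM in WT leaf and 624, 601 and 631 CPM in f3h leaf. The groups again did not overlap, but the distance was smaller. The PORB means were 884 ± 59.8 and 619 ± 15.4 CPM, a log2 fold change of -0.49 ± 0.08 (adjusted p = 0.00171).

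Among the magnesium chelatase subunits, CHLD measured 57.7, 60.2 and 59.1 CPM in WT leaf and 85.4, 92.6 and 83.9 CPM in f3h leaf. Every f3h library exceeded every WT library, and CHLD rose by a log2 fold change of 0.59 ± 0.09 (adjusted p = 0.000707) from 59.0 ± 1.29 to 87.3 ± 4.62 CPM. CHLH, the porphyrin-binding subunit, measured 1258, 1100.2 and 1085 CPM in WT leaf and 1084, 1081 and 1134 CPM in f3h leaf. These ranges overlapped, and the log2 fold change was -0.03 ± 0.08 (adjusted p = 0.799). CHLI measured 191, 257 and 236 CPM in WT leaf and 257, 247 and 257 CPM in f3h leaf. The ranges overlapped, with f3h replicates 1 and 2 inside the WT range, and the log2 fold change was 0.18 ± 0.11 (adjusted p = 0.237). The lowest WT value was that of replicate 1, the library that stood apart.

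CAO1, the chlorophyll b enzyme, measured 618, 754 and 744 CPM in WT leaf and 741, 726 and 729 CPM in f3h leaf. The 3 f3h libraries fell inside the WT range. Its log2 fold change was 0.08 ± 0.10 (adjusted p = 0.533). A neighbouring locus, Os10g0567100, held 28 counts over the WT leaf libraries and 42 over the f3h ones, against 70822 and 78310 for CAO1, and summing both loci changed no call. Whether reads were split between them by the counting is not known.

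Leaf markers also moved in f3h leaf. Their summed level was 31886 to 39833 CPM in WT leaf and 27620 to 27922 CPM in f3h leaf, with no overlap. CAB2R fell by a log2 value of -1.52 ± 0.10 (adjusted p = 4.61e-06) and RCA rose by 0.50 ± 0.09 (adjusted p = 0.00206). CAB1R stood at -0.28 (adjusted p = 0.368) and RBCS at -0.26 (adjusted p = 0.460). For this pair WT leaf replicate 1 was low, at 5924 CPM for CAB1R and 167 CPM for RBCS against means of 12018 and 370 CPM in replicates 2 and 3, and the f3h leaf means of 8063 and 248 CPM lay between. Their part in the leaf results was not tested.

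**Figure D1:**
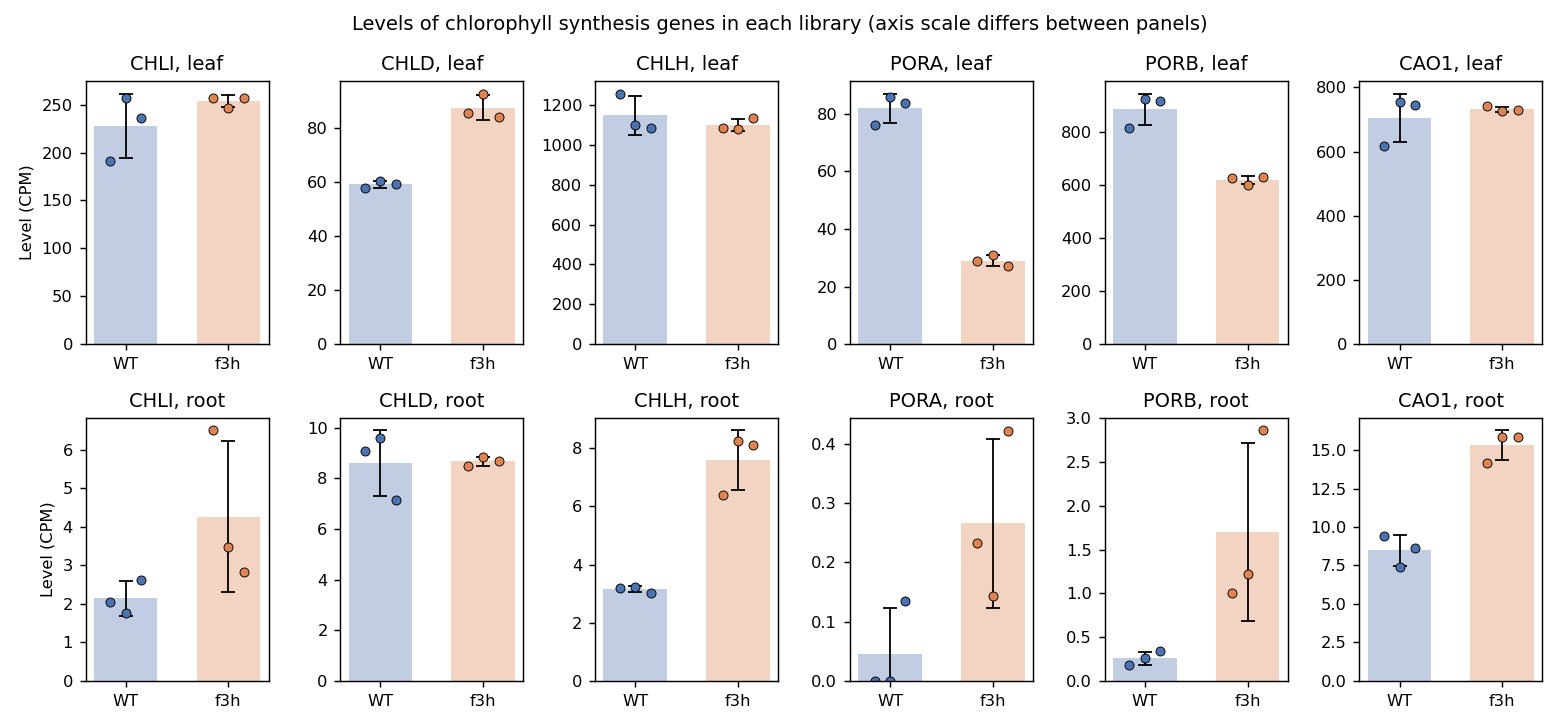
Level in CPM (vertical axis, linear from 0, a different scale in each panel) of CHLI, CHLD, CHLH, PORA, PORB and CAO1 in leaf (top) and root (bottom) of WT and f3h. Points are libraries, bars are means and error bars are SD (n = 3). PORA and PORB are lower and CHLD higher in f3h leaf with no overlap. In f3h root CHLH, CAO1, CHLI and PORB lie above all WT libraries. PORA does so too, on 4 counts in WT root and 20 in f3h root.

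Count ratios within a library do not depend on its total. The size of a ratio depends on the lengths of both genes, so only its change between groups is read. PORA counts were 9.33%, 9.31% and 9.15% of PORB counts in WT leaf, and 4.64%, 5.14% and 4.30% in f3h leaf. The PORA share relative to PORB was lower in every f3h library, with a log2 difference of -0.98. CHLD counts were 4.59%, 5.48% and 5.45% of CHLH counts in WT leaf and 7.88%, 8.56% and 7.40% in f3h leaf. This chelatase ratio was higher in every f3h leaf library, with a log2 difference of 0.62. In root the same ratio was 283%, 298% and 236% in WT and 133%, 107% and 107% in f3h, a log2 difference of -1.24. The CHLD to CHLH ratio thus differed between genotypes in opposite directions in the 2 organs, with no overlap in either. For each of these 3 ratios the exact two-sided permutation test gave p = 0.1, the smallest that 3 against 3 libraries allow, so p below 0.05 could not be reached. Adjusted over the 7 ratios computed, that p is 0.175. CHLI to CHLH gave p = 0.3 in leaf and 0.6 in root, and CHLD to CHLI gave 0.1 in leaf and 0.2 in root, by the same exact test.

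**Figure D2:**
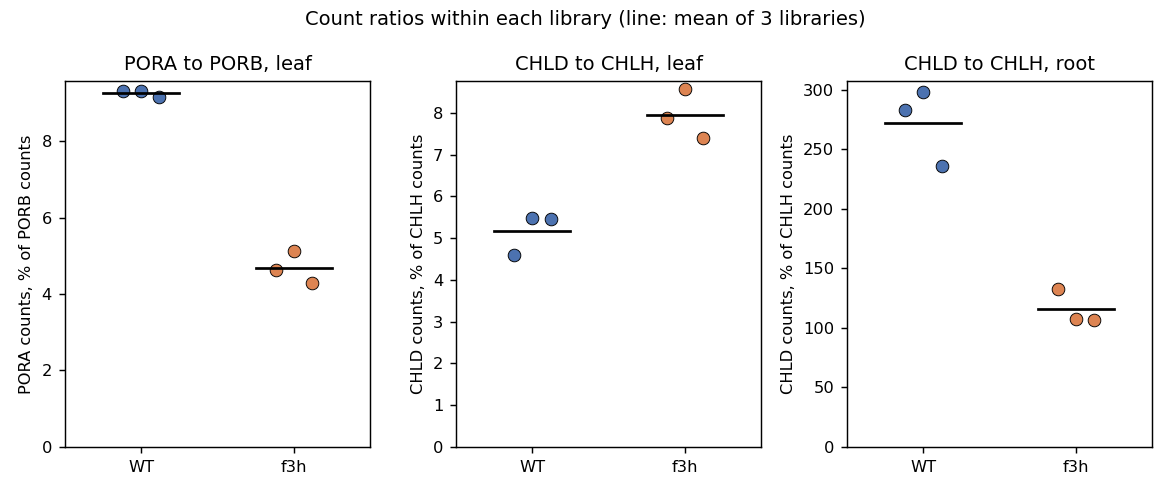
Counts of PORA as a percentage of PORB counts in leaf, and counts of CHLD as a percentage of CHLH counts in leaf and in root (vertical axes, linear from 0), for each of 3 WT and 3 f3h libraries. Points are libraries and lines are means; the CHLD to CHLH ratio is higher in f3h leaf (7.40% to 8.56% against 4.59% to 5.48%) and lower in f3h root (107% to 133% against 236% to 298%).

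In root, all 6 genes were scarce. CHLH, CHLI and CAO1 rose in the f3h line, and PORB was called higher after clearing the filter on low counts only through the f3h libraries. CHLD did not pass the test, and PORA had too few counts for it, so 4 of 5 tested genes were called higher. For comparison, 24.9% of the 24583 genes tested in root were called higher and 25.4% lower. For 4 of the 5 the f3h and WT libraries formed separate ranges, as they did for 57.3% of all genes tested. A gene that clears the filter only through the group where it is high had to differ, as PORB did here, so the count over tested genes is a description.

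PORB measured 0.182, 0.256 and 0.337 CPM in WT root, from 5, 7 and 10 counts, and 1.01, 1.22 and 2.86 CPM in f3h root, from 26, 34 and 68 counts. The lowest f3h library lay above the highest WT library, and f3h replicate 3 was well above the other f3h libraries. Because PORB entered the test only through its higher group, the fitted log2 fold change of 2.65 ± 0.62 (adjusted p = 0.00071) describes its size and is no free test of direction. It was 2.06 without f3h root replicate 3 (adjusted p = 0.0204). PORA had 4 counts over the WT root libraries, all in replicate 3, and 20 counts over the f3h root libraries. The levels were 0, 0 and 0.135 CPM in WT and 0.233, 0.143 and 0.421 CPM in f3h. Per total count the f3h to WT ratio was 5.45, with an exact binomial 95% interval of 1.83 to 21.9 that covers counting error only. When PORA was kept in the fit, the log2 value was 2.38 with no count filter (adjusted p = 0.213) and 2.31 in a fit of all 12 libraries (adjusted p = 0.0245).

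CHLH measured 3.21, 3.22 and 3.03 CPM in WT root and 6.39, 8.24 and 8.13 CPM in f3h root. All f3h libraries were well above the narrow WT range, and CHLH rose by a log2 fold change of 1.24 ± 0.22 (adjusted p = 2.65e-05). CHLD, its ATPase-type partner, measured 9.08, 9.59 and 7.14 CPM in WT root and 8.49, 8.85 and 8.68 CPM in f3h root. The f3h values lay within the WT range, with a log2 fold change of -0.02 ± 0.17 (adjusted p = 0.940). CHLI measured 2.04, 1.76 and 2.63 CPM in WT root and 6.51, 3.47 and 2.82 CPM in f3h root. The groups did not overlap, but f3h replicate 1 was high and replicate 3 was close to the WT values. CHLI rose by 0.96 ± 0.32 (adjusted p = 0.0131), and without f3h root replicate 1 the call was lost (0.53, adjusted p = 0.221).

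CAO1 measured 9.41, 7.43 and 8.62 CPM in WT root and 14.2, 15.9 and 15.9 CPM in f3h root. The libraries formed separate ranges, and CAO1 rose by a log2 fold change of 0.82 ± 0.15 (adjusted p = 3.43e-05), from 8.49 ± 0.995 to 15.3 ± 0.976 CPM. The neighbouring locus Os10g0567100 held 59 counts in WT root and 34 in f3h root, against 717 and 1186 for CAO1.

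Leaf markers moved with these root results. Their summed level was 4.72 to 5.72 CPM in WT root and 62.0 to 65.8 CPM in f3h root, with none of the 4 at 0 in any root library. The chlorophyll a/b-binding protein genes CAB2R and CAB1R rose by log2 fold changes of 3.92 and 4.24 in f3h root, RCA (Rubisco activase) rose by 3.11, and RBCS (Rubisco small subunit) had too few counts to be tested. Of the root markers, 3 of 4 fell in f3h root, where 25.4% of all genes tested fell. CASP1, a Casparian strip gene, fell by -1.74, NRAMP5 by -0.32 and LSI1 by -0.15. LSI2 did not pass, at 0.01 (adjusted p = 0.755). The summed level of the root markers was 3643 to 3781 CPM in WT root and 3470 to 3509 CPM in f3h root. Relative to the f3h leaf level, the gain from WT root to f3h root was 0.398% for CAB2R, 0.213% for CAB1R, 0.138% for RCA and 0.0662% for RBCS. The same gain was 0.0770% for CHLD, 0.232% for PORB, 0.403% for CHLH, 0.761% for PORA, 0.839% for CHLI and 0.932% for CAO1. These percentages are means over libraries. That of CHLI includes the high f3h root replicate 1, that of CHLD comes from a difference smaller than the spread between libraries, and those of PORA and RBCS rest on few counts. The part of leaf transcripts in the root results was not tested. In bulk tissue, more cells of a type and more RNA per cell cannot be told apart.

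In an interaction test on all 12 libraries, the f3h effect was higher in root than in leaf for PORB, CHLH and CAO1 and lower for CHLD. PORA was also called higher, on few root counts. Of the 26328 genes in that test, 16% were called higher and 17.4% lower. The difference, root effect minus leaf effect on the log2 scale, was 3.10 ± 0.43 for PORB (adjusted p = 5.50e-05). For PORA the fitted value was 3.77 ± 0.74 (adjusted p = 0.00107), but PORA cleared the filter only through its leaf counts and its root values rest on 4 and 20 counts. Without WT root replicate 3, when WT root is at 0, the fitted value was 7.13 and depends on the prior count, so the size of the PORA difference is not known. CHLH differed by 1.26 ± 0.14 (adjusted p = 7.60e-06) and CAO1 by 0.73 ± 0.14 (adjusted p = 0.000924). CHLD differed by -0.62 ± 0.15 (adjusted p = 0.00491), having risen in leaf while not passing the test in root. CHLI did not pass, at 0.77 ± 0.32 (adjusted p = 0.0764), though it did when WT leaf replicate 1 was left out (0.88, adjusted p = 0.00985) and without f3h root replicate 3 (0.99, adjusted p = 0.0201).

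**Figure D3:**
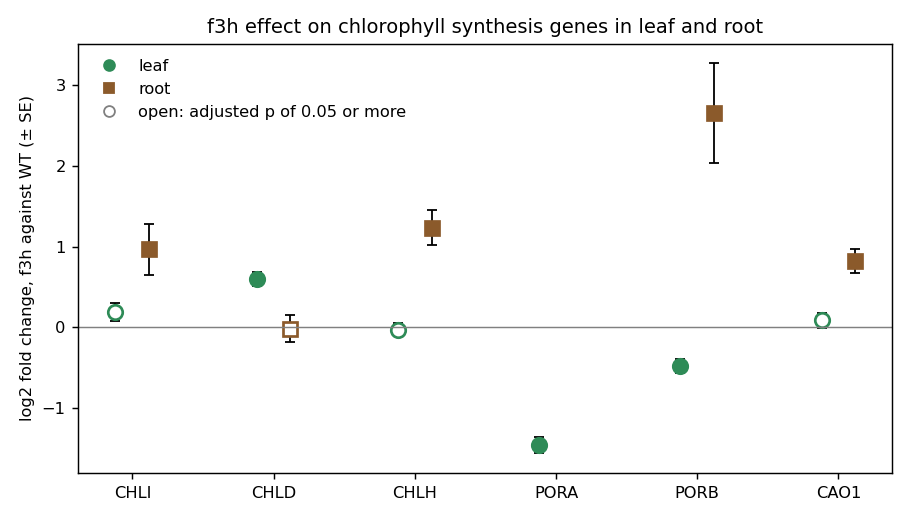
Log2 fold change of f3h against WT (vertical axis, ± SE) for the 6 genes in leaf (circles) and root (squares); filled symbols have an adjusted p below 0.05 and PORA has no root value because of its low counts. PORB lies at -0.49 in leaf and 2.65 in root, and CHLD at 0.59 in leaf and -0.02 in root.

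All 6 genes were lower in root than in leaf in both genotypes, where 33.4% of genes were called lower in WT and 37.5% in f3h. In order of the root level as a percentage of the leaf level, the WT values were 0.0292% for PORB, 0.0549% for PORA, 0.275% for CHLH, 0.940% for CHLI, 1.20% for CAO1 and 14.6% for CHLD. CHLD thus kept the highest root level relative to leaf. The order of PORB and PORA rests on WT root replicate 3, which holds all 4 PORA counts of WT root; in the other WT root libraries PORA was at 0 and PORB at 5 and 7 counts. In f3h the order was PORB at 0.274%, CHLH at 0.690%, PORA at 0.916%, CHLI at 1.68%, CAO1 at 2.09% and CHLD at 9.93%. In WT, fitted log2 fold changes of root against leaf ran from -12.27 ± 0.19 for PORB to -3.34 ± 0.14 for CHLD, and in f3h from -9.20 ± 0.15 to -3.99 ± 0.08. These include a scaling shift of all genes by -0.57 in WT and -0.66 in f3h against library totals. On library totals alone, 13924 genes were higher and 5605 lower in WT root, against 9887 and 8436 in the test used, and all 6 genes remained lower.

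The rest of the pathway was read from 17 further loci of chlorophyll synthesis, 3 of the heme branch, 7 of chlorophyll breakdown and 3 regulators. In f3h leaf, 6 of the 17 synthesis genes rose and 1 fell, with a median log2 fold change of 0.28. Among all genes tested in leaf 17.9% rose and 18.6% fell (36.5% in either direction). Counted over both directions, the share of synthesis genes called is near that background. By direction, the share that rose lay above it and the share that fell below it, which was not tested. GSA, which makes 5-aminolevulinate, rose by 0.84 ± 0.16 (adjusted p = 0.00347), HEMC (porphobilinogen deaminase) by 0.87 ± 0.13 (adjusted p = 0.000784) and HEMB, which forms porphobilinogen, by 0.40 ± 0.09 (adjusted p = 0.00553). HEMD (uroporphyrinogen III synthase) rose by 0.28 ± 0.10 (adjusted p = 0.0465), a call lost in 9 of 15 alternatives. The loci Os03g0337600 and Os04g0610800 also rose, by 1.01 and 0.61. GluTR (glutamyl-tRNA reductase) and Os01g0622300 did not pass, at 0.30 (adjusted p = 0.178) and 0.18 (adjusted p = 0.173). PPOX1, protoporphyrinogen oxidase, fell by a log2 fold change of -0.83 ± 0.09 (adjusted p = 0.000148). Without WT leaf replicate 1, 12 of the 17 were called, 8 higher and 4 lower, while the calls over all genes went from 8188 to 11145.

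In the heme branch, SE5, the heme oxygenase that leads to phytochrome chromophore, rose in f3h leaf by 0.48 ± 0.09 (adjusted p = 0.00361), and the other 2 genes of that list did not pass. Of the 7 breakdown genes, 2 rose and 1 fell, beside 17.9% and 18.6% of all genes. RCCR1, the red chlorophyll catabolite reductase, rose by 2.06 ± 0.20 (adjusted p = 5.77e-05), from 6.59 ± 1.82 to 27.0 ± 0.849 CPM. Os03g0146400 rose by 0.44, and Os04g0320100 fell by a log2 value of -0.33, a call lost in 5 alternatives. The 3 regulators did not pass in leaf: GLK1 and GLK2, transcription factors of chloroplast development, stood at -0.08 (adjusted p = 0.460) and 0.18 (adjusted p = 0.110) on the log2 scale, and Os02g0220400 at 0.18 (adjusted p = 0.217).

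In f3h root, 6 of the 17 synthesis genes rose and 2 fell, with a median of 0.21 against 0.01 for all tested genes. The median of the 5 tested enzyme genes described above was 0.96. It includes PORB, which cleared the filter only through f3h, and leaves out PORA. Among all genes tested in root 24.9% rose and 25.4% fell (50.3% in either direction). The share of synthesis genes called is again near the background over both directions. By direction, it lay above for rises and below for falls, which was not tested. The rises include CHLP, which cleared the filter only through f3h, so their share is a description. CHLP, geranylgeranyl reductase, which makes the phytol tail, was called higher by 4.90 ± 0.67 (adjusted p = 4.06e-07), from 6 counts over the WT root libraries to 178 over the f3h root libraries. It cleared the filter on low counts only through the f3h libraries. CHLG, chlorophyll synthase, which attaches the tail, rose by 1.01 ± 0.15 (adjusted p = 1.34e-06) and PPOX1 by 0.67 ± 0.24 (adjusted p = 0.0205). The PPOX1 call was lost in 3 of 15 alternatives. Os01g0279100, Os11g0267000 and Os01g0622300 rose by 1.09, 0.48 and 0.31, and the calls of the last pair were lost in 5 and 3 alternatives. HEMB was lower in f3h root, at -0.40 ± 0.07 (adjusted p = 3.74e-05), as was Os04g0610800, at -0.34. Without WT root replicate 3 the count was 3 higher and 2 lower, while the calls over all genes went from 12362 to 11097.

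SE5 fell in f3h root by -0.82 ± 0.06 (adjusted p = 7.89e-12). Of the 7 breakdown genes in root, 1 rose and 4 fell, beside 24.9% and 25.4% of all genes, with a median of -0.46. NOL, a chlorophyll b reductase, rose by 1.12 ± 0.18 (adjusted p = 7.07e-06). NYC1, also a chlorophyll b reductase, fell by -0.46 ± 0.15 (adjusted p = 0.0118), SGR, the stay-green magnesium dechelatase, by -0.55 ± 0.22 (adjusted p = 0.0355), RCCR1 by -0.89 ± 0.26 (adjusted p = 0.00536) and Os06g0354700 by -0.69. The calls of NYC1, SGR and RCCR1 were lost in 2, 5 and 1 of 15 alternatives, and without WT root replicate 3, 1 gene rose and 2 fell. Among the regulators, GLK1 had 0 counts in WT root and 41 in f3h root. Against a floor of 3 counts over the WT root libraries that is 14.9-fold higher. This ratio leaves out the counting error of the f3h counts, so it is no lower limit. GLK2 had 14 and 60 counts, with f3h root replicate 1 at 3 counts, inside the WT range. Neither GLK gene passed the count filter in root. Os02g0220400 rose by 0.52 (adjusted p = 0.0450), a call lost in 5 alternatives.

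**Figure D4:**
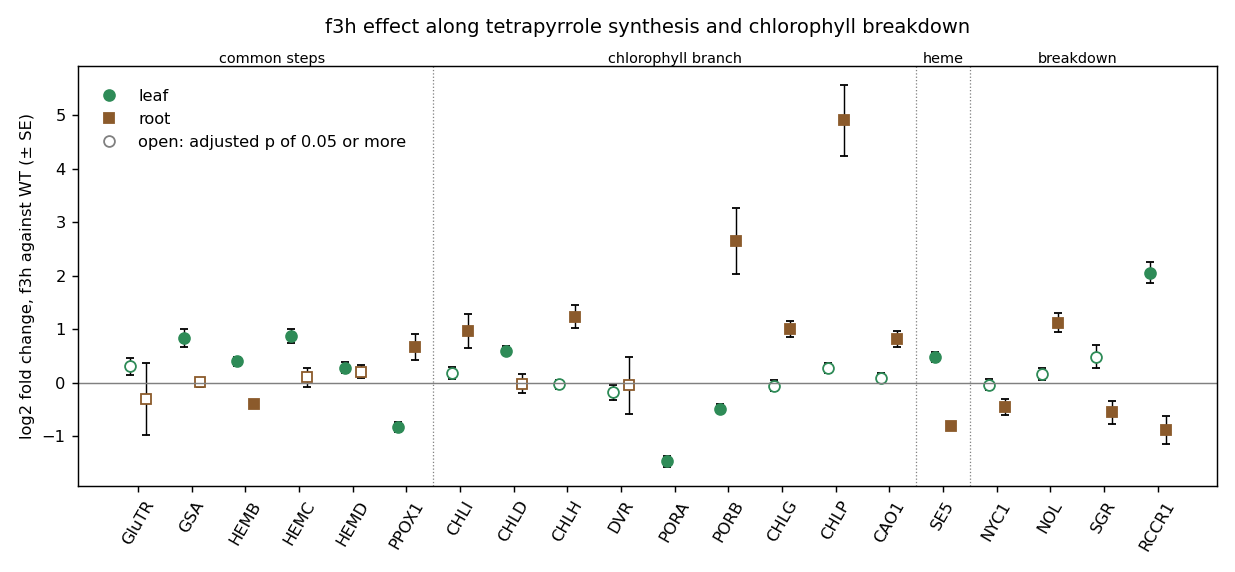
Log2 fold change of f3h against WT (vertical axis, ± SE) in leaf (circles) and root (squares). Shown are the synthesis, heme branch and breakdown genes whose names passed the check, without regulators and markers. They are arranged from common steps through the chlorophyll branch and the heme branch to breakdown. Filled symbols have an adjusted p below 0.05, and PORA has no root value. GSA, HEMB and HEMC are raised in leaf, CHLP, PORB, CHLH and CHLG in root, and RCCR1 lies at 2.06 in leaf and -0.89 in root.

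Profiles of mean log2 CPM over the 4 groups, with a pseudocount of 0.1 CPM and each centred on its own mean, were compared across all listed genes by root mean square distance. CHLI and CAO1 were each other's nearest profile, at a log2 distance of 0.18. PORB was nearest to GLK1 at 0.21 and GLK2 at 0.38, but GLK1 was at 0 in WT root, so its distance and rank depend on the pseudocount. The GLK2 distance depends on it too, since WT root means were 0.163 CPM for GLK2 and 0.258 CPM for PORB. CHLH was nearest to Os01g0279100 at 0.39 and to PORA at 0.51, and PORA was nearest to CHLH and then to Os01g0279100 at 0.65. The PORA distances also depend on the pseudocount, since its WT root mean lies below it. CHLD, the gene with the smallest gap between organs, was nearest to Os03g0146400 at 0.091 and Os03g0337600 at 0.16. All these profiles share a large gap between leaf and root, and 4 groups are few.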

How the data were processed

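The authors deposited raw counts per gene as whole numbers for 12 libraries. The tools named in the submitters' processing notes are fastp, HISAT2, featureCounts and DESeq. Their versions, the build, the annotation and the strand setting are not given in the sources. The quasi-likelihood F test of edgeR 4.0.16 (R 4.3.3) was the main test (filterByExpr, TMM, Benjamini-Hochberg adjustment, threshold 0.05), fitted on all genes of the groups compared and without a replicate block; standard errors derive from the F statistic. The difference of the f3h effect between organs was fitted as an interaction on all libraries. Alternatives used DESeq2 1.42.0, limma 3.58.1 voom, other scalings, no filter, a replicate block, a fit of all libraries, CAO1 summed with its neighbour, and each library left out. The procedure was tested on simulated counts, with changes planted only in genes with high counts. That test does not cover low counts such as those of PORA and PORB in root. TMM moved the f3h effect by 0.03 in leaf and -0.03 in root on the log2 scale against library totals.

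Depth was 23740780 to 37821918 counts per library; intervals and the floor of 3 counts cover counting error only, since the labels describe no molecular identifiers. Replicate pairs differed by more than sampling noise, with a chi-square per degree of freedom of at least 5.42, and were counted separately. The pairs with WT leaf replicate 1 gave 57.5 and 61.1, and no other pair exceeded 7.09.

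The members and lists were chosen with earlier results of these data known. The plan was to print up to 5 risers and 5 fallers of smallest p per list and comparison, and all regulators. For the synthesis list, all called genes are printed in leaf and in root. GluTR, CHLP, Os01g0622300 and Os11g0267000 are also given in leaf, though not called. The table gives no names. Of 44 listed names, 31 were in the RefSeq gene table of assembly ASM3414082v1 and 30 passed a check of chromosome and relative position (within 10%); others are given by locus. That position measure replaced gene rank, under which 29 passed, and the aliases CAO and GluTR were added, after outcomes were seen. Also chosen after values were seen were the PORA count ratio, the GLK1 ratio to the floor and the gain relative to f3h leaf. The same holds for the look at WT leaf replicate 1 and the alternatives for list genes. No gene lengths were used, so levels are not compared between genes, and count ratios are read only for their change between groups.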

Additional observations from a re-analysis of the deposited data

Results flagged for a closer look

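The f3h effect differed between root and leaf in the interaction test (edgeR, adjusted p below 0.05) for the genes given here, beside 16% of all genes tested that were called higher and 17.4% lower. Each value is the root effect minus the leaf effect on the log2 scale. Only genes whose names passed the position check are given, so other called loci of the lists are left out. Among the 6 enzyme genes, PORB gave 3.10, CHLH 1.26 and CAO1 0.73, and CHLD gave -0.62. PORA gave a fitted 3.77, but it cleared the filter only through leaf, its root values rest on 4 and 20 counts, and the value was 7.13 without WT root replicate 3. Of the 4 leaf markers, CAB2R, CAB1R and RCA gave 5.42, 4.51 and 2.60, and RBCS did not pass, at 1.04 (adjusted p = 0.389). PORB has 5 to 10 counts per WT root library and cleared the root filter only through f3h.

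Among genes of the common steps, GSA gave -0.84, HEMB -0.81 and HEMC -0.78, each with the higher effect in leaf, while PPOX1, which fell in leaf and rose in root, gave 1.49. In the chlorophyll branch CHLG gave 1.06 and CHLP 4.62, the latter with 6 counts over the WT root libraries. SE5 of the heme branch rose in leaf and fell in root and gave -1.30. Of the 7 breakdown genes, 2 were called higher and 4 lower, beside 16% and 17.4% of all genes tested. Among those with passed names, RCCR1 gave -2.96, rising in leaf and falling in root, SGR gave -1.05 and NOL 0.96. The SGR call was lost in 6 of 20 alternatives. GLK2 gave 1.98, but its root values rest on 14 and 60 counts and the call was lost in 12 of 20 alternatives. GLK1 was also called, but no difference is given, since its WT root libraries are at 0.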

How the results depend on the processing

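Calls of the enzyme genes kept their direction and side of the threshold under every alternative run, except those of CHLI: its rise in root was lost without f3h root replicate 1 (0.53), and its difference between organs passed without WT leaf replicate 1 (0.88) and without f3h root replicate 3 (0.99). Of the 2 fits that kept PORA in root, the fit of all 12 libraries called it and the fit with no count filter did not. Values with adjusted p above 0.05 near 0 changed sign in leaf for CHLH (-0.06 to 0.04) and CAO1 (-0.000302 to 0.14) and in root for CHLD (-0.14 to 0.07).

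Leaving out single libraries, calls among the 17 synthesis genes numbered 6 to 12 in leaf and 5 to 7 in root, calls among the 7 breakdown genes in root 3 to 5, and calls over all genes in leaf 5790 to 11145. Os04g0610800, lower in WT root than in WT leaf in the test used, was higher by 0.26 on library totals. The causes were not tested.

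Same-numbered replicates deviated together with r of -0.07 to 0.12, so the numbers were not taken to pair libraries. With a replicate block, 7449 genes were called in leaf and 12223 in root, and no call of the 6 genes changed. Root counts of PORA and PORB limit what depth can show.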
